A study of Mus musculus with 2 samples.

Results

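Genes that mark monocytes and macrophages were followed across HSPCs co-cultured with SP-derived EVs: *Ly6c1*, *Ly6c2*, *Cx3cr1*, *Adgre1*, *Lyz1*, *Lyz2*, *Cd14*, *Mpeg1*, *Cd68* and *Fcgr1*. They were taken as a fixed list of names, chosen with earlier results of these data known. All probes whose RefSeq accession belongs to one of these genes were used. All 10 of these genes were found, with 16 probes among the 56604 probes of the array, and they stand among 22911 genes with a symbol. *Adgre1* was matched under its current name, since older annotations call it *Emr1*.

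The cells were LKS+ cells, sorted from the BM of WT mice as positive for c-kit and Sca-1 and negative for lineage antigens (Gr-1, CD11b, B220, TER-119, CD4 and CD8), and then propagated in serum-free medium with stem cell factor, IL-6 and IL-3. One culture then received SP-derived EVs of CML mice and the other SP-derived EVs of control mice, both at 150 μg/ml for 24 h. The methods describe the CML donors as irradiated mice carrying BCR-ABL-transduced cells, while the labels name only CML mouse spleen and normal mouse spleen, so that an effect of leukemia and one of irradiating the donors cannot be told apart. WT mice of the study were males of the BALB/c and C57BL/6J strains aged 6 to 8 weeks, and which strain was used for these arrays is not given in the sources used here. RNA of each culture was hybridized to 1 array, 2 arrays in all, so that no difference has a replicate check, no p-value was computed, and every comparison is between these 2 cultures.

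Monocytes leave the BM, circulate, and can become macrophages in tissues. In the mouse, inflammatory monocytes carry much Ly6C on their surface, whereas patrolling monocytes carry little Ly6C and much of the fractalkine receptor CX3CR1. Tissue macrophages are recognized by F4/80, and phagocytes of both kinds make lysozyme, lysosomal proteins and receptors for bacterial products and antibodies. None of these genes is limited to 1 cell type: Ly6C and lysozyme are also made by granulocyte precursors, and *Ly6c1* by some endothelial cells. In RNA of a whole culture, fewer cells of a type and less RNA per cell cannot be told apart.

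Signals are the scanner intensity scaled to a common trimmed mean on each array, and ratios are those of CML EVs over control EVs on the log2 scale. As each probe binds its own target with its own strength, signals are compared between the arrays for 1 probe, and not between probes. Of the spots that are not controls, 53.3% with CML EVs and 54.4% with control EVs were well above background, and no spot was saturated. Of the 16 probes of the marker genes, 15 passed this flag on both arrays, and every gene had at least 1 such probe. The remaining probe, of *Adgre1*, passed it with control EVs only. Spread could be judged from repeated spots and from pairs of probes, and the scanner software gave an error as well. Probes placed repeatedly on the array, with up to 10 spots each, had a median SD of the log2 ratio of 0.034 in 272 bright probes (log2 signal at or above 8). In 9 dim probes (log2 signal under 8) the median SD was 0.15, with a 95th percentile of 0.40, so that ratios of dim genes are less certain. The median difference between the log2 ratios of a gene's pair of bright probes was 0.072 over 1918 genes, with a 90th percentile of 0.18. The scanner software gave each signal of the 15 probes an error of 10.0% to 10.3%, which amounts to 0.20 on the log2 ratio. As this error was nearly the same for each of these probes, it is used as a fixed yardstick and not as a measured spread. None of these covers the variation between cultures or EV preparations.

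As a group the marker genes lay slightly higher with CML EVs, with the Ly6C genes farthest above and *Lyz1* farthest below the other members. Of the 10 genes, 8 were higher and 2 lower with CML EVs, and the median log2 ratio was 0.11 (1.08-fold). Over the 13411 genes measured in this way on each array, 51.9% were higher, the median was 0.01, and the quartiles were -0.09 and 0.09. At least 25% higher were 3 of the 10 (*Ly6c1*, *Ly6c2* and *Fcgr1*), against 5.01% of all genes, and 1 (*Lyz1*) was lower by the same fold, which is at least 20% lower, against 5.25% of all genes. At least 1.5-fold higher were 2 (*Ly6c1* and *Ly6c2*), against 1.52% of all genes, and 0 were 1.5-fold lower, against 1.18%. The log2 ratios of 4 genes exceeded the software's error of 0.20, and those of the other 6 did not. Without *Ly6c1* and *Ly6c2*, the median over the remaining 8 genes was 0.09. *Ly6c1* and *Ly6c2* are close paralogs, so that they count as less than 2 independent members.

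**Figure D1:**
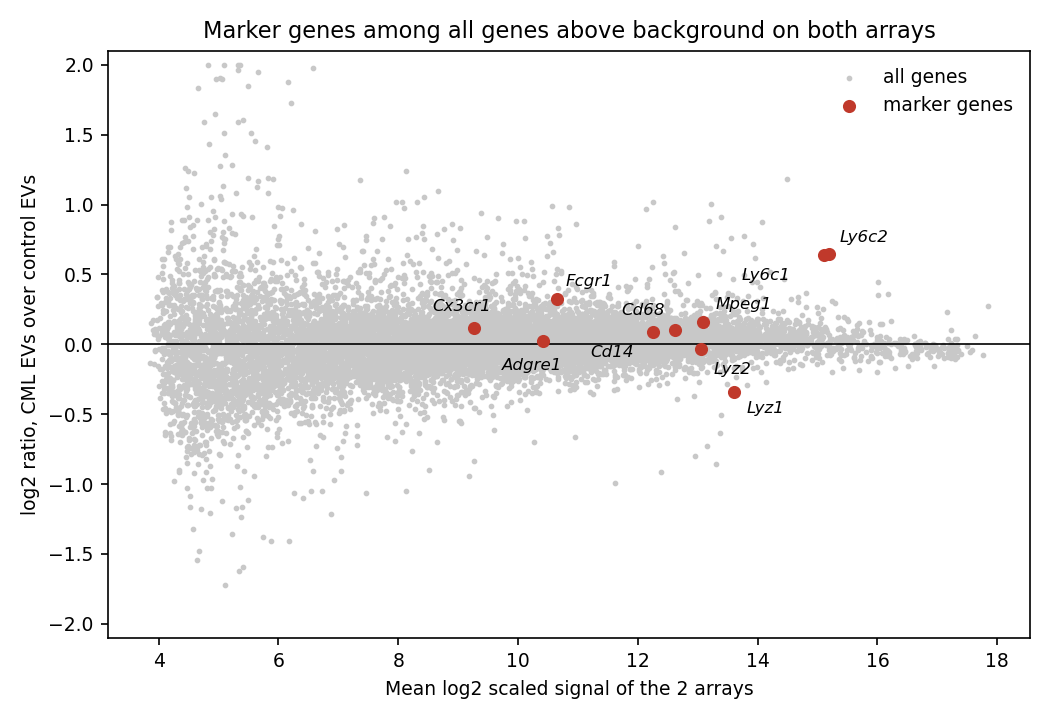
Vertical axis, log2 ratio (CML EVs over control EVs); horizontal axis, log2 scaled signal averaged over both arrays. Grey points are the 13411 genes above background on each array, with those beyond a log2 ratio of 2 drawn at the edge, and red points are the 10 marker genes. *Ly6c1* and *Ly6c2* lie at 0.64 on the bright side, *Lyz1* lies at -0.34, and the others lie between -0.03 and 0.32.

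The Ly6C antigens came first in size. *Ly6c1* and *Ly6c2* encode small proteins anchored to the outer membrane by a lipid, and antibodies to Ly6C, and the Gr-1 antibody through its binding of Ly6C and Ly6G, are used to sort monocytes and granulocytes. The chosen probe of *Ly6c1* had a signal of 44256 with CML EVs and 28485 with control EVs, which is 1.55-fold. Its other probe, which names another transcript of the gene, had 13909 with CML EVs and 8809 with control EVs, or 1.58-fold. The probe of *Ly6c2* had 47043 with CML EVs and 30095 with control EVs, or 1.56-fold. All 3 probes were thus higher with CML EVs, with log2 ratios of 0.64, 0.66 and 0.64, about 3 times the software's error. Of the 13411 genes, 168 had a higher ratio than *Ly6c2* and 170 than *Ly6c1*. Among the 9093 genes with a mean log2 signal of 8 or more, where ratios scatter less, 0.704% were at least 1.5-fold higher.

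The probe sequences were not used here, so whether a probe of one Ly6C gene also bound RNA of the other was not tested, and the 3 probes are not taken as 3 separate measurements. Their start regions are compared below, most of which lies before the transcript, so that this comparison does not bear on the RNA that the probes bind. The windows below are from RefSeq (GRCm38.p6, 250 bases before to 50 after the annotated start, minus strand, 5′ to 3′). They are shown because this pair gave like ratios, and capitals mark the longest run of bases that both share. Each gene has another annotated start, whose window is not shown.
Ly6c1, chr15:75048788-75049087: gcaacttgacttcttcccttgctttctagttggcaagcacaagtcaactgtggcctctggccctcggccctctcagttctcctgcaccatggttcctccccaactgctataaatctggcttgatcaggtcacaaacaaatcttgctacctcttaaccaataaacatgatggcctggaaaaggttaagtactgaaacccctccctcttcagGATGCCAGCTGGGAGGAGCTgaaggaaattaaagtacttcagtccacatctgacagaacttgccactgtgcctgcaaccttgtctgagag
Ly6c2, chr15:75111922-75112221: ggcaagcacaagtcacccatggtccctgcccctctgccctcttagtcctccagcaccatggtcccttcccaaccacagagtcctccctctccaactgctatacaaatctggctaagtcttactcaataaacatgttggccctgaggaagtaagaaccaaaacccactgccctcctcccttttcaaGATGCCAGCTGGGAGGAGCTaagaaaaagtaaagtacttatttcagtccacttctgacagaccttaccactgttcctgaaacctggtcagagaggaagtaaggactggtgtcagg
In a global alignment of these windows, 211 of 265 paired bases were identical (79.6%), which is 63.0% of the 335 positions with gaps counted, and the longest shared run had 20 bases. With gaps counted, the other pairings of start windows of these genes were less alike, at 52.6%, 49.4% and 47.8%. The arrays refer to an older assembly, and these coordinates are those of the RefSeq windows only.

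The lysozyme genes went apart from the Ly6C genes and from each other. Lysozyme cuts the cell wall of bacteria; *Lyz2* is the form of macrophages and granulocytes, and *Lyz1* is best known from Paneth cells of the gut. The probe of *Lyz1* had a signal of 11089 with CML EVs and 14026 with control EVs, a log2 ratio of -0.34, and was 1.26-fold lower with CML EVs. The probe of *Lyz2* had 8439 with CML EVs and 8637 with control EVs, a log2 ratio of -0.03. *Lyz1* was the only marker gene at least 20% lower, which 1.18% of the 9093 brighter genes were. The difference of *Lyz2* was no larger than the median SD between repeated spots of bright probes. With median scaling the log2 ratio of *Lyz1* was -0.27, short of this limit, and that of *Lyz2* was 0.04, of the other sign. Each gene has 1 probe, so that no further probe bears on the difference between them.

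The start regions of the lysozyme genes are shown for the same reason, as these genes are near copies whose probes gave unlike ratios (RefSeq, GRCm38.p6, minus strand, 5′ to 3′, capitals for the longest shared run).
Lyz1, chr10:117292819-117293118: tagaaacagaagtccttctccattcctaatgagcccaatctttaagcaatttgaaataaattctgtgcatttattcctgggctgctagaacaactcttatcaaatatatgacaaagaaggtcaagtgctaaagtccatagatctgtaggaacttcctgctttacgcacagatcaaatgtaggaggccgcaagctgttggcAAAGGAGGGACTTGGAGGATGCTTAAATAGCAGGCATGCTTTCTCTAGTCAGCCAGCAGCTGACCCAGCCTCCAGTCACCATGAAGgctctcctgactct
Lyz2, chr10:117282223-117282522: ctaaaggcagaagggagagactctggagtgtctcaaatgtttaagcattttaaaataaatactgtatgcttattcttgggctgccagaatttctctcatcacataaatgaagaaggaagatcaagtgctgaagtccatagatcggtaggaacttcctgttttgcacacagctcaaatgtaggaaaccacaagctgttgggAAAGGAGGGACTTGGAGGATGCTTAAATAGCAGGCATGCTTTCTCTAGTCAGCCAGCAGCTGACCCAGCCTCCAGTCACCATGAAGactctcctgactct
Of 298 paired bases 249 were identical (83.6%, or 82.5% of 302 positions with gaps counted), and the longest shared run, which holds the start of transcription, had 86 bases. Whether either probe also bound RNA of the other gene was not tested.

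Windows of this kind were found for 8 of the 10 genes. The letters GAGGAA, the core that the myeloid transcription factor PU.1 binds, were searched on both strands and occurred in 6 of the 10 windows of these genes, while 28.3% of all 32851 windows hold them. Of the 6, 4 belong to *Ly6c1* and *Ly6c2*, near copies of each other whose own windows overlap, and the others to *Cd68* and *Fcgr1*. The letters GAAA followed after any 2 bases by GAAA again, from the element through which type I IFN induces genes, were likewise searched on both strands and occurred in 0 of the 10 and in 3.44% of all windows. With no match of the second motif, no overlap of the motifs arose. A match of letters is a description of the window and no sign of binding.

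The surface receptors differed little, with *Fcgr1* at the upper end. *Fcgr1* encodes CD64, the high-affinity receptor for IgG, which monocytes and macrophages carry. Its probe had a signal of 1794 with CML EVs and 1433 with control EVs, a log2 ratio of 0.32 or 25.2% higher; it lay on the limit itself, and 4.94% of all genes had a higher ratio. *Cd14* encodes a co-receptor for bacterial lipopolysaccharide. Its chosen probe had 5022 with CML EVs and 4736 with control EVs, and its other probe 4284 with CML EVs and 4171 with control EVs, with log2 ratios of 0.08 and 0.04. *Cx3cr1*, for the fractalkine receptor, had 638 with CML EVs and 589 with control EVs by the chosen probe. By its other probe it had 157 with CML EVs and 144 with control EVs, so that both gave a log2 ratio near 0.12 (0.12 and 0.13). For both *Cd14* and *Cx3cr1* the difference was below the software's error of 0.20.

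*Adgre1*, which encodes F4/80, the adhesion receptor by which mouse macrophages are usually identified, had a signal of 1379 with CML EVs and 1356 with control EVs, a log2 ratio of 0.02. Its other probe was dim, at 9.13 with CML EVs, where it was not well above background, and 16.7 with control EVs. With the lowest signal well above background with CML EVs, 13.6, as the floor, that probe was 1.23-fold lower with CML EVs. This bound is rough, since *Mmp9* had 14.5 with CML EVs and was still not well above background. With control EVs its signal was also near the lowest one well above background, 12.9, so that no direction is read from the dim probe. The mean of both probes gave *Adgre1* a log2 ratio of -0.42. *Adgre1* was the marker gene closest to no difference by its bright probe.

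*Mpeg1* and *Cd68* differed less than the Ly6C genes. *Mpeg1* encodes perforin-2, a pore-forming protein that macrophages direct against engulfed bacteria. Its chosen probe had a signal of 9225 with CML EVs and 8258 with control EVs, a log2 ratio of 0.16, and its other probe had 124 with CML EVs and 101 with control EVs, a log2 ratio of 0.29. *Cd68* encodes macrosialin, a heavily glycosylated protein of the lysosomal membrane. Its chosen probe had 6567 with CML EVs and 6105 with control EVs, and its other probe 2388 with CML EVs and 2105 with control EVs, with log2 ratios of 0.11 and 0.18. For both genes each probe was higher with CML EVs, and only the dimmer probe of *Mpeg1* exceeded the software's error. That probe lies in the dim range, where the SD between repeated spots was 0.15 at the median and 0.40 at the 95th percentile.

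**Figure D2:**
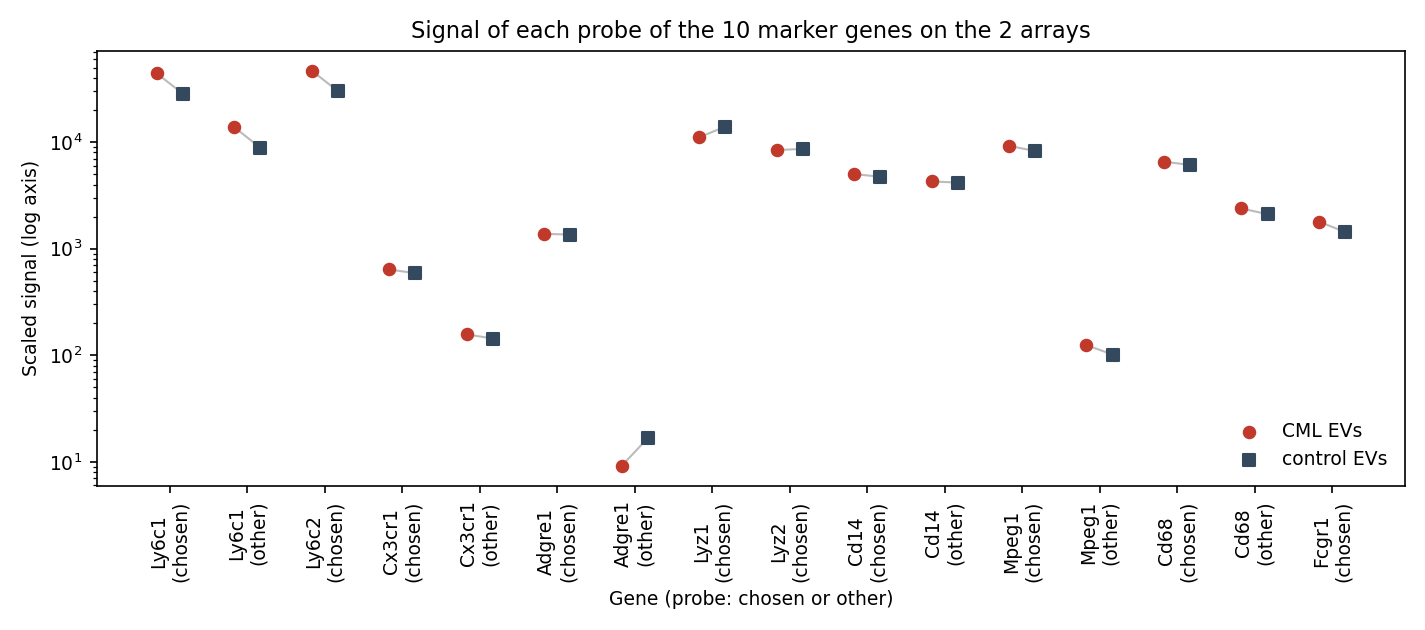
Scaled signal (log axis) of each of the 16 probes of the 10 marker genes with CML EVs (red circles, left) and with control EVs (dark squares, right); "chosen" is the probe used for the gene. The red point is the higher one for all 3 probes of *Ly6c1* and *Ly6c2* and the lower one for *Lyz1* and the dim probe of *Adgre1*, and most other pairs are nearly level.

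**Figure D3:**
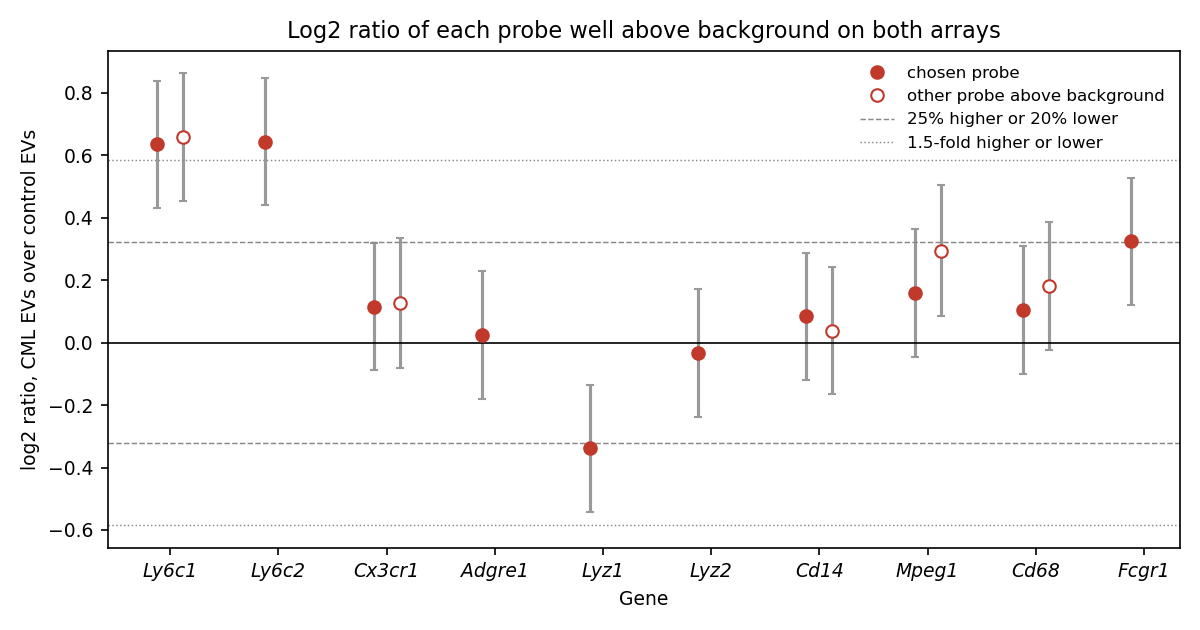
Log2 ratios (CML EVs over control EVs) of the 15 probes that were well above background on each array; filled points are the probes used for each gene, open points are other probes, bars are the error of the ratio from the scanner software, and lines mark 25% higher or 20% lower (dashed) and 1.5-fold (dotted). For *Ly6c1*, *Ly6c2*, *Fcgr1* and *Lyz1* the bar of the chosen probe does not reach 0.

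Where a gene had a pair of measurable probes, the probes gave the same direction. This held for all 5 genes with 2 probes well above background on both arrays (*Ly6c1*, *Cx3cr1*, *Cd14*, *Mpeg1* and *Cd68*). The chosen probe was the one with the higher signal with CML EVs, as the methods describe. Taking instead the probe with the higher signal with control EVs left the choice of probe as it was for all 10 genes.

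Other genes of the monocyte lineage were mostly a little higher with CML EVs as well. Of 22 such genes, 21 were well above background on both arrays. Of these, 18 were higher and 3 lower, where 51.9% of all genes were higher. Their median log2 ratio was 0.15. At least 25% higher were 5, against 5.01% of all genes, and 0 were 20% lower, against 5.25%. *Plac8*, a bright gene of immature myeloid cells, had 74879 with CML EVs and 58541 with control EVs, or 1.28-fold. *Csf2ra*, a chain of the receptor for granulocyte-macrophage colony-stimulating factor, had 11349 with CML EVs and 9070 with control EVs, and was 25.1% higher. *Fcgr4*, another receptor for IgG, was 1.39-fold higher at 315 with CML EVs and 227 with control EVs. *Treml4* (1.43-fold) and *Cd300e* (1.88-fold), both receptors of Ly6C-low monocytes, were dimmer, *Cd300e* having only 31.2 with CML EVs and 16.5 with control EVs. The 3 lower genes were *Ccr2*, *Nr4a1* and *Itgam*. *Ccr2*, the chemokine receptor of Ly6C-high monocytes, had 840 with CML EVs and 982 with control EVs (1.17-fold lower). *Nr4a1*, a transcription factor of Ly6C-low monocytes, had a log2 ratio of -0.04. *Itgam* had -0.20 by its chosen probe and 0.43 by its other probe. Among the higher genes, *Csf1r* and *Zeb2* also had a probe of the other sign (-0.06 and -0.21). The bright genes *Fcer1g*, the signaling chain of Fc receptors, and *Ctss*, a lysosomal protease, were 1.12-fold and 1.03-fold higher.

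Genes that define resident macrophages of tissues were mixed and partly below background. Of 25 such genes, 18 were well above background on both arrays, 2 on 1 array and 5 on neither (*Cd163*, *C1qa*, *Vsig4*, *Timd4* and *Cd5l*). Of the 18, 12 were higher and 6 lower, with a median log2 ratio of 0.15, which was 0.07 with normexp background correction. *Vcam1*, an adhesion molecule of splenic red pulp macrophages, had 247 with CML EVs and 110 with control EVs, or 2.25-fold, *Slc40a1*, the iron exporter ferroportin, 481 with CML EVs and 299 with control EVs, or 1.61-fold, and *Spic*, the transcription factor of red pulp macrophages, 89.0 with CML EVs and 61.9 with control EVs, or 1.44-fold. *Mrc1*, the mannose receptor, was 1.26-fold lower, with 624 with CML EVs and 788 with control EVs, and *Clec4f*, known from Kupffer cells, was 2.17-fold lower at signals of 22.5 with CML EVs and 48.9 with control EVs. *Mertk*, a receptor for dying cells, was 1.29-fold higher at signals of 21.7 with CML EVs and 16.9 with control EVs. The brightest were *Gpnmb*, *Lgmn* and *Hmox1*, which were 25.1%, 19.0% and 11.3% higher.

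Genes listed for mature neutrophils, which share Ly6C and lysozyme with monocytes, had a higher median ratio than the monocyte and macrophage lists, but they differed among themselves. Of 17 such genes on the array, 15 were well above background with both EV types. Of these, 10 were higher and 5 lower, where 51.9% of all genes were higher. Their median log2 ratio was 0.44, and 7 were at least 1.5-fold higher, against 1.52% of all genes. *Chil3*, a chitinase-like protein that macrophages make as well, had 6992 with CML EVs and 3445 with control EVs, or 2.03-fold. *Ltf* was 1.88-fold, *Ngp* 1.84-fold, *Camp* 1.84-fold, *Itgb2l* 1.81-fold and *Cd177* 1.78-fold higher; *Ltf*, *Ngp* and *Camp* encode granule proteins that granulocyte precursors make. Of the bright genes *S100a8* was 1.36-fold and *S100a9* 1.17-fold higher, while *Csf3r*, the receptor for granulocyte colony-stimulating factor, was 1.11-fold lower. The other lower genes were *Il1b* (log2 ratio -0.30), *Padi4* (-0.14), *Mmp8* (-0.09) and *Cxcr2* (-0.09), the chemokine receptor of mature neutrophils. The summed signal of the list was 347561 with CML EVs and 274130 with control EVs. *S100a9* alone gave 158284 of it with CML EVs and 135033 with control EVs, so that the sum follows the brightest probes. The sum over the 10 marker genes was higher with CML EVs as well, at 135451, against 103719 with control EVs. *Mmp9* and *Mmp25* were not well above background on either array. The cells had been sorted as Gr-1 negative and CD11b negative before they were propagated. The part of granulocytic cells in the ratios of *Ly6c1* and *Ly6c2* was not tested.

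Markers of the sorted cells themselves were present on both arrays and mostly lower with CML EVs. Of 11 measured stem and progenitor cell markers, 10 were lower and 1 higher, where 48.1% of all genes were lower. Their median log2 ratio was -0.18, which was -0.11 with median scaling. *Cd34* had 22007 with CML EVs and 24857 with control EVs, *Cd48* was 1.16-fold, *Meis1* 1.14-fold and *Slamf1* 1.29-fold lower. *Ly6a*, which encodes Sca-1 and belongs to the same family as the Ly6C genes, was the exception at 1.28-fold higher. Among the antigens against which the cells had been sorted, *Itgam*, for CD11b, was detected with 4199 with CML EVs and 4837 with control EVs; its chosen probe gave a log2 ratio of -0.20 and its other probe 0.43, so that its direction depended on the probe. *Cd4* was 1.12-fold lower and *Ptprc*, of which the B220 antibody sees 1 form, 1.02-fold higher. *Cd8a* was not well above background on either array, and *Ly6g* was not analysed here, as no probe carried its accession.

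Dendritic cell and lymphocyte genes had medians near 0. Of 11 measured dendritic cell genes, 5 were higher and 6 lower, with a median log2 ratio of -0.01 that lay above 0 in 6 of 12 alternative settings. *Bst2*, for tetherin, was 29.9% higher, *Siglech* had a ratio of 0.996, and *Cd74*, the invariant chain, was 1.16-fold lower. Lymphocyte genes had a median of 0.03 over the 3 measured, while 4 of 7 were not well above background on either array, among them *Ms4a1*. Of the measured ones *Nkg7*, of cytotoxic cells, was 1.55-fold higher, *Cd79b* 1.02-fold higher and *Cd3e* 1.05-fold lower, although another probe of *Cd3e* gave a log2 ratio of 0.22.

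**Figure D4:**
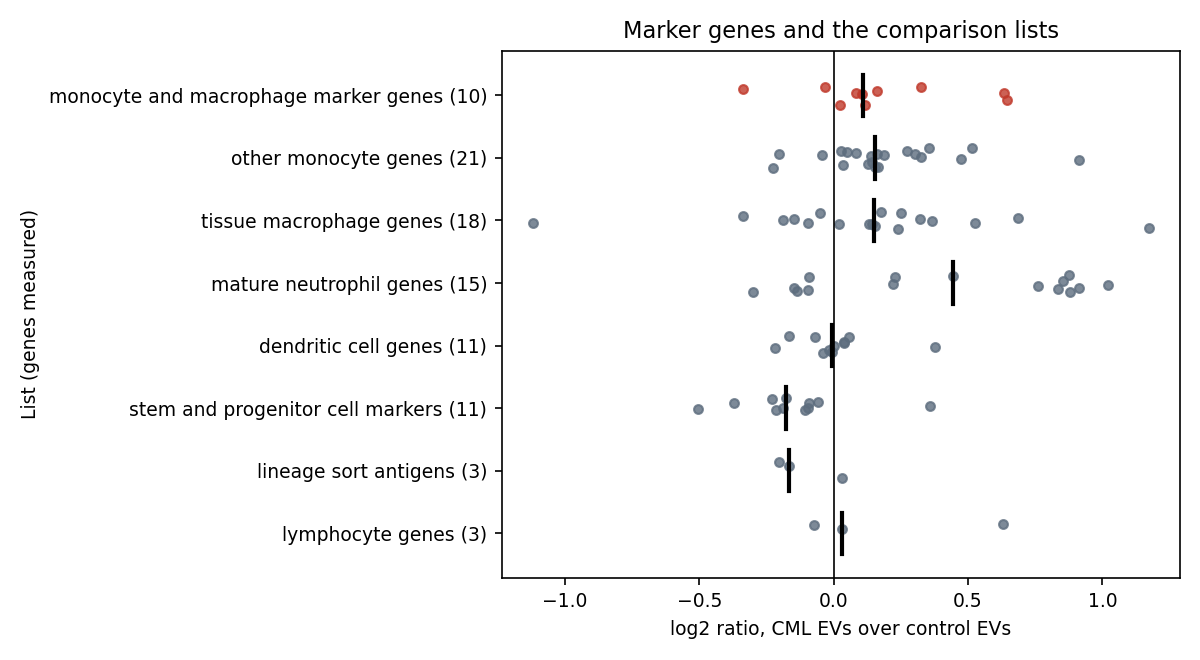
Log2 ratios (CML EVs over control EVs) of the marker genes (red) and 7 comparison lists (grey), each point 1 gene well above background on both arrays, with black bars at the medians and the number of genes in parentheses. The median is 0.11 for the marker genes, 0.15 for the other monocyte genes and for the tissue macrophage genes, 0.44 for the mature neutrophil genes and -0.18 for the stem and progenitor cell markers.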

How the data were processed

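The authors labeled RNA with Cy3 and hybridized it to 1-colour Agilent mouse arrays, 1 per group. Their scanner files hold background-subtracted spot intensity from Agilent Feature Extraction 12.0.3.1, with flags and the software's error. Their deposited table holds the same intensity, on a linear scale and not centred, times 1 factor per array (0.947 for CML EVs and 0.942 for control EVs, with median values of 21.2 for CML EVs and 22.2 for control EVs); ratios to the scanner intensity were constant within 5.0e-10.

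Here, control spots and 148 outlier spots were left out, each array was scaled after the methods to a mean of 2500 with the 2% brightest and 2% dimmest spots set aside, and a probe's spots were averaged as log2. Probes were named by RefSeq accession (GRCm38.p6; 32994 of 56604 matched), and a gene's probe was that with the highest CML EV value. The scanner files hold no gene name column, so naming by gene name was not done. With 1 array per group there was no test; counts at 25% higher (or the same fold lower, 20%) and at 1.5-fold use genes well above background on both arrays. A probe above background on 1 array got a rough bound. The number of arrays limits the precision.

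The marker genes and the 7 comparison lists were chosen with earlier results of these data known. All marker genes are named. Of each other list, the genes past the 25% limit (at most 6) and the 3 brightest are named. A few more were named after their values were seen, because they were below background, lower with CML EVs, or had probes of unlike sign. Not every gene that this rule names is reported here. The ratio step was tested on simulated data. Alternatives covered scaling (75th percentile, median, quantile), normexp (offset 50, then quantile; limma 3.58.1, R 4.3.3), deposited values, probe choice, filters and outliers; removal of a lowess trend (span 0.3, statsmodels 0.14.6), the mean of probes above background and the list without the Ly6C genes were added after seeing the data. Python 3.11.15, pandas 2.3.3 and Biopython 1.88 were used.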

Additional observations from a re-analysis of the deposited data

How the results depend on the processing

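No paired analysis was possible because each group has 1 array. Of the 10 marker genes, 8 kept their sign under all 12 alternatives. *Adgre1* turned with the mean of all probes (-0.42) and *Lyz2* with median scaling (0.04). Several of these alternatives barely bear on the sign. Deposited values differ only by 1 factor per array. The filters, keeping outlier spots and taking the probe with the highest control EV value left all 10 ratios unchanged. For genes with 1 probe, averaging probes changed nothing. *Ly6c1* lay between 1.53-fold and 1.63-fold higher, *Ly6c2* between 1.54-fold and 1.64-fold, and *Fcgr1* between 1.24-fold and 1.31-fold, so that 2 in place of 3 genes were 25% higher with quantile normalization, normexp and the lowess trend removed. The median of the marker genes (0.11) was 0.18 with median scaling, which raises all genes by 0.07. The count of marker genes 20% lower (1) was 0 under median scaling and 2 when all probes were averaged.

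Over all genes, 672 were 25% higher, 704 were 20% lower, 204 were 1.5-fold higher and 158 were 1.5-fold lower. These counts were 331, 160, 83 and 24 with normexp. Admitting genes above background on 1 array only, 1127 were 20% lower, 467 were 1.5-fold higher and 516 were 1.5-fold lower, and without a filter the counts were 2208, 2435, 1332 and 1415. The share of calls at the 25% limit that were higher was 48.8%, against 67.8% with median scaling and 67.4% with normexp, and at 1.5-fold 56.4%, against 70.7% and 77.6%; with quantile normalization it was 66.7% and with the lowess trend removed 67.3% at 1.5-fold. Naming probes by accession only was the sole way to name them and is no alternative here. Apart from the filters, which admit more genes by construction, the cause was not tested.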

Other observations

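The Ly6C genes belong to a family of surface proteins encoded on chromosome 15, and the family was looked up after the ratios of *Ly6c1* and *Ly6c2* had been seen. Of 14 genes there with a Ly6 symbol, 10 had a named probe and 7 were well above background on both arrays. Beside *Ly6c1* and *Ly6c2*, *Ly6i* was 1.43-fold higher with CML EVs at signals of 120 with CML EVs and 84.1 with control EVs, and *Ly6f* 1.37-fold higher at 73.9 with CML EVs and 54.0 with control EVs. *Ly6a* was 1.28-fold higher. *Ly6e*, at 35626 with CML EVs and 30471 with control EVs, was 1.17-fold higher, and *Ly6d* had 245 on both arrays. Whether these probes share transcripts of near-identical family members was not tested.

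Genes of IgG receptors, looked up for the same reason after *Fcgr1*, were each higher with CML EVs. *Fcgr4* was 1.39-fold and *Fcgr1* 25.2% higher, whereas *Fcgr3* was 1.10-fold, the inhibitory receptor *Fcgr2b* 1.07-fold and the shared signaling chain *Fcer1g* 1.12-fold higher, these last 3 by less than the software's error.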
